A study of Mus musculus with 26 samples.

Results

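The AP-1 family genes Fos, Fosb, Fosl1, Fosl2, Jun, Junb, Jund, Atf3, Batf and Maff were followed in ChIP-seq of RAW264.7 cells, a mouse macrophage line. Their regions are those called in any library over the mm10 RefSeq span of the gene plus 1 kb, together with intergenic HA and H3K27ac regions within 50 kb for which the gene was the nearest of all RefSeq genes. This gave 74 of the 166353 regions of the series, of which 26 were HA, 15 RNA polymerase II (Pol II) and 33 H3K27ac regions, and each of the 10 genes had a region of every target. Nur77 cells carried HA-tagged Nur77, a nuclear receptor, under a doxycycline-inducible promoter, and GFP cells carried GFP in its place. All cells, the controls included, received 50 ng/ml doxycycline for 18 h, and either 500 ng/ml LPS, a bacterial cell wall component, for 1 h or no LPS. Nur77 LPS and Nur77 untreated cells had 3 HA libraries each, and these groups and the GFP LPS and GFP untreated groups had 2 Pol II and 2 H3K27ac libraries each. Each construct was in 1 stable line, so the construct and the line cannot be told apart. The labels do not say that replicates were separate cultures, so the p-values may measure technical spread only.

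AP-1 is a dimer of basic leucine zipper proteins. Fos family proteins (Fos, Fosb, Fosl1, Fosl2) bind DNA only when paired with a Jun protein (Jun, Junb, Jund), whereas Jun proteins can also pair with each other. Atf3 and Batf are related proteins that pair with Jun proteins, Batf without an activation domain of its own, and Maff is a small Maf protein, a zipper protein that also lacks an activation domain. Many of these genes are immediate-early genes, which are switched on without new protein synthesis when macrophages sense LPS. H3K27ac marks active promoters and enhancers, and Pol II signal over a gene is a measure of polymerase on it.

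From the results below, 5 members were chosen. Pol II rose with LPS over Maff, Atf3 and Junb in both lines, and H3K27ac, a different measure, fell over Fos and Jun. The promoter sequences of these 5 are shown for reference and entered no test. Each is the 250 bases before a RefSeq start (GRCm38.p6, the assembly of mm10), written 5′ to 3′ on the strand of the gene. They are Maff at chr15:79347270-79347519 (plus strand, the second of the 3 starts listed), Atf3 at chr1:191183334-191183583 (minus strand), Junb at chr8:84978749-84978998 (minus strand), Fos at chr12:85473640-85473889 (plus strand) and Jun at chr4:95052223-95052472 (minus strand). Capitals mark a match to a motif searched on both strands.
Maff: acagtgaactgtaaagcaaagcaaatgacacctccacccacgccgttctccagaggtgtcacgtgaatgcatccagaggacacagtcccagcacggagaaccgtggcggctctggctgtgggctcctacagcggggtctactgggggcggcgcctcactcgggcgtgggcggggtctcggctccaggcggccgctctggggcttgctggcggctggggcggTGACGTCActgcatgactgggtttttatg
Atf3: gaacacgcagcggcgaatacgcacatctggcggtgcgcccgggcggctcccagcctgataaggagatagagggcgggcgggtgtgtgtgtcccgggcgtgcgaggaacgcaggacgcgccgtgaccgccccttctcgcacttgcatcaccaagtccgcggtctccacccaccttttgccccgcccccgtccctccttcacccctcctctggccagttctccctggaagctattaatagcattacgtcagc
Junb: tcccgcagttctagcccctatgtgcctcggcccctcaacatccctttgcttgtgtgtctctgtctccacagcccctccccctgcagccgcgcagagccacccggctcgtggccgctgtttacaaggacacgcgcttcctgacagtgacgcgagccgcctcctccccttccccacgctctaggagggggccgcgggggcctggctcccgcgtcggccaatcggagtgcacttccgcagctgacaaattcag
Fos: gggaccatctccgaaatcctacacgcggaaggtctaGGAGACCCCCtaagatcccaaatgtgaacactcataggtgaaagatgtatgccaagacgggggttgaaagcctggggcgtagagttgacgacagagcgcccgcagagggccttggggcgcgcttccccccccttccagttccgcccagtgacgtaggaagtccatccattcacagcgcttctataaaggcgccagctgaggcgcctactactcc
Jun: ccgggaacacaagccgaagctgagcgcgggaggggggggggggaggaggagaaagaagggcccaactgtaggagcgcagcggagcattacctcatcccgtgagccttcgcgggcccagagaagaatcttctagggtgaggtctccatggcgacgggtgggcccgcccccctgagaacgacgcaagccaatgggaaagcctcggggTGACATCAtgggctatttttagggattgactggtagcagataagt
The motifs were TGANTCA (the AP-1 site), TGACGTCA (the cAMP response element), TGANNTCA (which includes TGACGTCA), AAAGGTCA (the site of a single Nur77 molecule), the NF-kB consensus and the CArG box of serum response factor. In 11 windows of 9 members (Fosl1 had none in the table), TGANTCA was found in 0, against 6.75% of all 32851 promoter windows. TGACGTCA was found in 1 member window, 29 bases before the Maff start shown, against 1.55% of all windows. TGANNTCA was found in 4 member windows of Jun, Jund and Maff, against 11.9% of all, and in the Jun window shown it is TGACATCA, 45 bases before the start. The NF-kB consensus was found in windows of Fos, Fosb, Fosl2 and Maff, against 3.9% of all, and in the Fos window shown it lies 214 bases before the start. AAAGGTCA and the CArG box were found in 0 member windows, against 1.34% and 1.47% of all. These are matches of letters within 250 bases and not sites of binding, and motifs further upstream could not be found. With 11 member windows and shares this low, a count of 0 does not set the members apart from all promoters.

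The HA libraries held 6.41 to 18.2 M mapped tags, the Pol II libraries 11.9 to 23.1 M and the H3K27ac libraries 22.3 to 28.4 M. All values are normalized tags, that is, tags in called peaks of a region scaled to 10 M mapped tags and then by a factor for each library. The test was limma's, on regions with a called peak in each library of the target, and the small number of libraries limits its precision. In HA replicate 3 the called peaks were 342 bp (untreated) and 427 bp wide (LPS), against 826 to 1017 bp in the other HA libraries, and untreated Nur77 Pol II replicate 1 had a fragment length of 1550 bp, against 174 to 318 bp in the other Pol II libraries. All of 8 macrophage marker genes had Pol II regions (Mertk in 4 of 8 libraries), and 6 of 10 genes of other cell types had none (among them Cd3e, Alb, Krt5, Col1a1 and Myh6), while Cd4, Gfap and Cdh5 had regions in 8 libraries and Ms4a1 in 1. No HA library of GFP cells was analysed here, so HA values have no GFP level beside them. Regions called in input overlapped 5 of the 26 member regions in HA (6.77% of all HA regions). For Pol II they overlapped 5 of 15 (11.1% of all), and for H3K27ac 9 of 33 (10.1% of all). Their part in the results was not tested.

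The first comparison asked whether LPS changed HA-Nur77 at these genes. It was higher after LPS at 1 of 5 tested regions, a site 1231 bp beyond the end of Batf (chr12:85710318-85711334, mm10), and lower at 0, where 3.28% of all 11234 tested HA regions were higher and 1.35% lower. At this Batf site HA-Nur77 had 77.2, 117 and 75.9 normalized tags in Nur77 LPS libraries, against 38.8, 32.4 and 40.1 in untreated Nur77 libraries (90.0 ± 23.3 against 37.1 ± 4.07, SD, n = 3 each). All 3 LPS libraries were above all 3 untreated ones, and the log2 change was 1.23 ± 0.28 (SE, limma adjusted p = 0.035). The share of all tested HA regions with such a separation was not counted. The site is one of those over an input region. The call was lost without scaling factors (log2 change 1.31, adjusted p = 1) and without any 1 of the 6 libraries (1.03 to 1.34, adjusted p = 0.053 to 0.14). With replicate number as a block the adjusted p was 3.2e-07. H3K27ac at the same place (chr12:85709733-85711938) had peaks of 40.4 and 39.6 normalized tags in Nur77 LPS libraries, against no called peak in the untreated Nur77 libraries, and 53.1 and 48.5 in GFP LPS libraries, against 6.85 and 6.22 in the untreated GFP ones. Regions called in all Nur77 LPS libraries and in no untreated Nur77 library made up 3.55% of H3K27ac regions of that line, and those called in both untreated GFP and no untreated Nur77 library 3.90% of the regions of untreated cells.

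A second Batf site, inside the gene near its end (chr12:85705117-85706133), had 90.8, 122 and 71.9 normalized tags of HA in Nur77 LPS libraries, against 62.9, 56.3 and 45.8 in untreated Nur77 libraries. The groups did not overlap, but non-overlap was not counted over all HA regions here either. The log2 change of 0.76 ± 0.29 did not pass (adjusted p = 0.17), whereas with the replicate block it did (adjusted p = 1.5e-04). With the block 2 of the 5 tested regions, both at Batf, were higher, where the block called 20.4% of all tested HA regions higher and 20.0% lower.

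**Figure D1:**
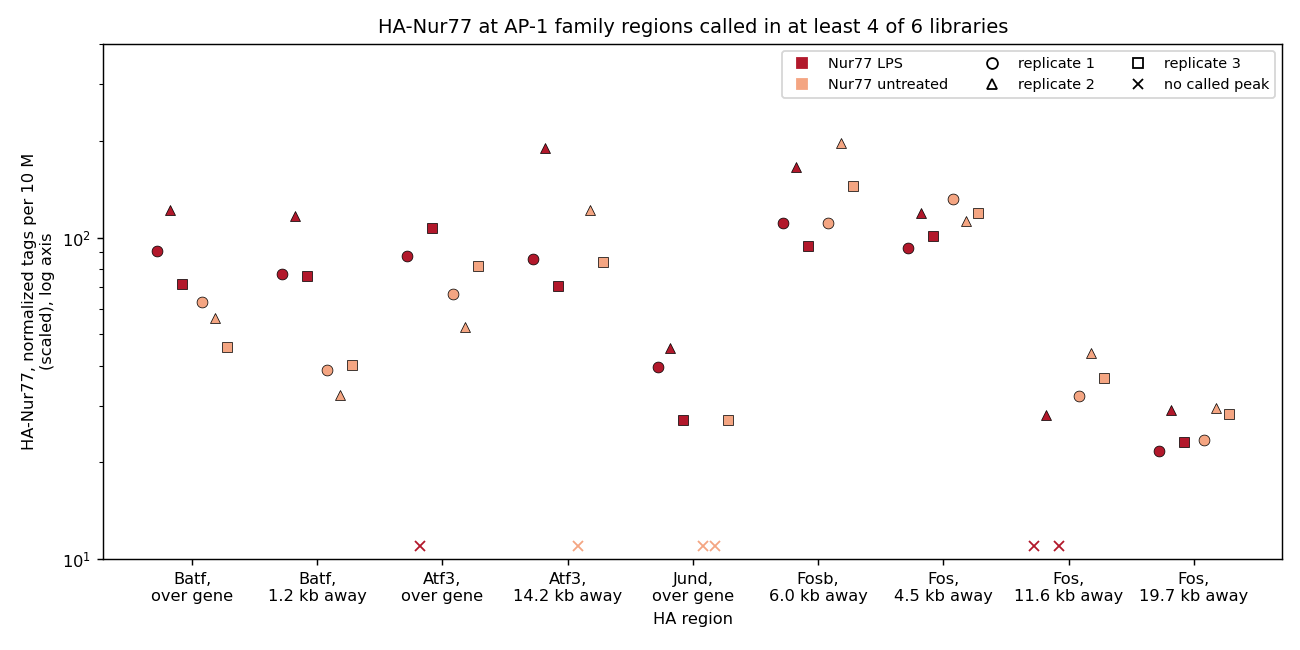
HA-Nur77 normalized tags per 10 M mapped tags (scaled, log axis) at the 9 member regions called in at least 4 of 6 HA libraries, with each point a library, Nur77 LPS left of Nur77 untreated, and crosses for libraries with no called peak. At the 2 Batf sites all LPS points lie above all untreated points, while at the Fos and Fosb sites called in every library the groups overlap. The share of all tested HA regions that separate in this way was not counted.

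The other tested HA sites flank the founding gene Fos and its close relative Fosb. Upstream of Fos, 4525 bp from it (chr12:85468349-85469365), HA had 93.0, 119 and 101 normalized tags in Nur77 LPS libraries, against 132, 113 and 119 in untreated Nur77 libraries. The groups overlapped, with a log2 change of -0.22 ± 0.25 (adjusted p = 0.68). At 19692 bp downstream of Fos the values were 21.7, 29.1 and 23.2 after LPS, against 23.5, 29.6 and 28.3 untreated, and overlapped as well (-0.14 ± 0.23, adjusted p = 0.80). A further Fos site, 11629 bp away, had 28.1 in LPS replicate 2 only, against 32.3, 43.8 and 36.7 in all 3 untreated libraries. A site 6032 bp from Fosb (chr7:19316150-19317166) had 111, 166 and 93.9 normalized tags in LPS libraries, against 111, 197 and 145 untreated, and again the groups overlapped (-0.29 ± 0.32, adjusted p = 0.67). All 3 Fos sites overlapped a region called in input.

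At the other members HA-Nur77 was called in some libraries only, so no test was made. Over Atf3, which encodes a stress-induced member, a site (chr1:191178364-191179380) had 87.5 and 107 normalized tags in Nur77 LPS replicates 1 and 3 and no called peak in replicate 2, against 67.0, 52.7 and 81.9 in the untreated libraries. A site 14241 bp upstream of Atf3 had 85.9, 190.5 and 70.6 after LPS, against no called peak in untreated replicate 1 and 122 and 84.0 in untreated replicates 2 and 3. The called values of the groups overlap at the second Atf3 site, and at the first the 2 LPS values lie above the 3 untreated ones. Over Jund, HA was called in all 3 LPS libraries (39.7, 45.4 and 27.2), against untreated replicate 3 only (27.1). At the starts of Maff lay 2 adjoining regions. The region that covers the window with TGACGTCA shown above (chr15:79347067-79348176) had 47.8 and 54.8 normalized tags in LPS replicates 1 and 2 and no called peak in the other 4 libraries. The one before it had 43.4 in LPS replicate 3, against 23.5 and 23.3 in untreated replicates 1 and 3. Of the 11 promoter windows, HA regions overlapped those of Maff and no other, and the last Maff window by coordinate only at its edge. Over Junb a peak of 137 normalized tags was called in LPS replicate 2 only and, at another place, one of 52.3 in untreated replicate 3 only. Sites over Fosl2 (72.9 and 52.7) and near Jun (22.3 and 21.1) were called in LPS replicates 1 and 3 only, and the Fosl1 site over the gene (30.4) in LPS replicate 1 only. The nearby sites of these 2 genes were called only without LPS, that 1012 bp from Fosl2 being in untreated replicate 1 (61.1) and that 1649 bp from Fosl1 in untreated replicate 3 (18.7). Over Fosb itself untreated replicates 1 and 3 had 20.6 and 16.8, and no LPS library had a called peak. In all, 11 of the 26 HA regions rested on 1 library. By replicate number, LPS libraries had 22690, 28562 and 28680 called HA peaks, against 19900, 19684 and 25497 in untreated libraries. Of all HA regions 4.62% were called in all LPS and no untreated libraries, and 0.654% the other way, with 0 member regions in either set. More calls after LPS were thus a feature of the HA libraries as a whole. By replicate number the LPS libraries were also deeper, with 6.9, 13.9 and 18.2 M mapped tags, against 6.41, 10.2 and 13.6 M untreated. The part of depth in the number of calls was not tested. Called H3K27ac regions overlapped 22 of the 26 (84.6%), where the share over all HA regions was 79.8%, and called Pol II regions overlapped 23 (88.5%), where the share was 65.5%.

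The next question was how LPS changed Pol II over each gene. In both lines it rose over Maff, Atf3 and Junb, and in Nur77 cells over Fosl1 as well, while no gene was called lower on these summed tags. In Nur77 cells 4 of 10 were higher and 0 lower, where 15.2% of all 17081 tested Pol II regions were higher and 15.0% lower. In GFP cells 3 of 10 were higher and 0 lower, where 10.0% were higher and 8.55% lower. At an unadjusted p under 0.05 the counts were 5 of 10 in each line, where 42.3% of all regions had such a p in Nur77 cells and 32.7% in GFP cells. The calls differed per bp of called peak, with 5 of 10 higher and 1 lower in Nur77 cells, where 6.50% of all regions were higher and 5.70% lower, and 3 higher and 1 lower in GFP cells, where 4.20% were higher and 2.96% lower. Over the 10 genes the median log2 change was 0.62 in Nur77 cells and 0.54 in GFP cells, where the median over all regions was 0.01 in each. Without scaling factors the median change over all regions was -0.40 in Nur77 cells, with 1411 regions higher and 4669 lower in place of 2602 and 2564, and -0.15 in GFP cells, with 1300 and 1893 in place of 1715 and 1461, so changes here are relative to those shifts.

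**Figure D2:**
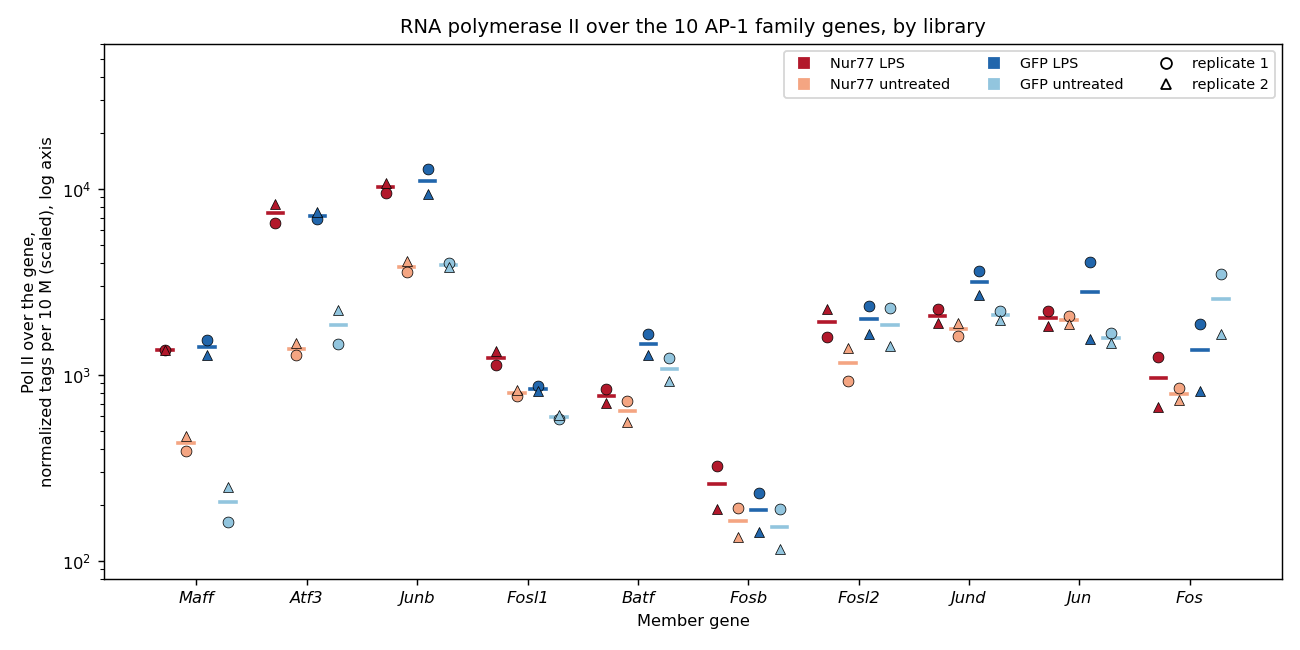
Pol II normalized tags per 10 M mapped tags (scaled, log axis) summed over the called region of each of the 10 genes, with each point a library and each bar the mean of 2, in the order Nur77 LPS, Nur77 untreated, GFP LPS and GFP untreated. Over Maff, Atf3 and Junb the LPS points of both lines lie above all untreated points, while over Fos the highest point is an untreated GFP library, at 3469.7.

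By summed tags, Maff had the largest rise in GFP cells among the 10 genes, and per bp of called peak Junb did in both lines (1.30 ± 0.22 in Nur77 and 1.53 ± 0.22 in GFP cells). The Maff region (chr15:79341942-79361915, shared with Tmem184b) had 1358 and 1355 normalized tags in Nur77 LPS libraries, against 390.1 and 466 in untreated Nur77 libraries, and 1534 and 1278 in GFP LPS libraries, against 162 and 249.9 in untreated GFP libraries. The LPS and untreated libraries did not overlap in either line. The log2 change was 1.67 ± 0.22 (adjusted p = 0.0016) in Nur77 cells and 2.79 ± 0.22 (adjusted p = 3.6e-04) in GFP cells. The called length was also longer after LPS, 14.5 kb against 9.50 kb in Nur77 cells and 17.2 kb against 6.04 kb in GFP cells, and per bp of called peak the log2 change was 0.81 and 1.26, still called in each line.

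Atf3 had the largest rise of summed tags in Nur77 cells. The region (chr1:191164933-191203074, shared with Fam71a) had 6509 and 8267 normalized tags in Nur77 LPS libraries, against 1284 and 1473 in untreated Nur77 libraries, and 6852 and 7504 in GFP LPS libraries, against 1455 and 2228 in untreated GFP libraries. The groups stood apart in each line, by a log2 change of 2.41 ± 0.25 (adjusted p = 5.9e-04) in Nur77 cells and 1.99 ± 0.25 (adjusted p = 0.0018) in GFP cells. Called length was 36.7 kb after LPS against 18.2 kb in Nur77 cells, and 37.5 kb against 23.9 kb in GFP cells. Per bp of called peak the log2 change was 1.14 and 1.32. Over Junb, whose protein is a Jun partner of the Fos proteins, the region (chr8:84964800-84987758, shared with Prdx2 and Rnaseh2a) had 9529.7 and 10797 normalized tags in Nur77 LPS libraries, against 3558 and 4065 in untreated Nur77 libraries, and 12792 and 9345 in GFP LPS libraries, against 4007 and 3810.4 in untreated GFP libraries. Here the called length hardly differed, 20.0 kb after LPS against 22.0 kb in Nur77 cells and 21.0 kb against 21.6 kb in GFP cells. The log2 change was 1.42 ± 0.24 (adjusted p = 0.0046) and 1.48 ± 0.24 (adjusted p = 0.0058).

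Fosl1, which encodes a Fos protein without the activation domain of Fos, rose in Nur77 cells with a smaller change. Its region (chr19:5446199-5461893, shared with Ccdc85b and Fibp) had 1133 and 1338 normalized tags in Nur77 LPS libraries, against 771 and 829.6 untreated, over 14.1 kb against 11.8 kb, and 866 and 814 in GFP LPS libraries, against 581 and 605 untreated, over 12.9 kb against 9.69 kb. In Nur77 cells the log2 change was 0.62 ± 0.15 (adjusted p = 0.016), and in GFP cells it was 0.50 ± 0.15 (adjusted p = 0.051, and 0.014 with the replicate block). The Nur77 call was lost without scaling factors (0.21, adjusted p = 0.38) and per bp of called peak (0.12, adjusted p = 0.77). The difference between the lines in this change was 0.12 ± 0.21 (adjusted p = 1). The call was also lost without Nur77 LPS replicate 2 (adjusted p = 0.083), untreated Nur77 replicate 1 (0.10) or untreated Nur77 replicate 2 (0.072).

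Of Fos, Jun, Fosb, Fosl2, Jund and Batf none passed in either line, although the replicate block and called length changed this for some. Fos (1.08 ± 0.32, adjusted p = 0.044) and Fosb (0.98 ± 0.28, adjusted p = 0.037) were higher after LPS in Nur77 cells per bp of called peak. Batf was lower per bp in Nur77 cells (-0.93 ± 0.21, adjusted p = 0.011) and in GFP cells (-0.98 ± 0.21, adjusted p = 0.012), the opposite sign to its summed tags. Over Fos (chr12:85467616-85480890) Pol II had 1239 and 672 normalized tags in Nur77 LPS libraries, against 847 and 735 untreated, and 1880.3 and 820.3 in GFP LPS libraries, against 3469.7 and 1665 untreated. Called length was 4.49 kb against 9.53 kb in Nur77 cells and 7.68 kb against 13.1 kb in GFP cells. The groups overlapped in both lines, and replicate 1 was above replicate 2 in all 4 groups. The GFP log2 change of -0.95 ± 0.48 had an adjusted p of 0.21, and with the replicate block, where it was -0.95 ± 0.22, Fos was lower (adjusted p = 0.010). The Nur77 log2 change of Fos was 0.21 ± 0.48. Over Jun (chr4:95045882-95056069, shared with the antisense gene Junos) the level was 2201 and 1824 after LPS in Nur77 cells, against 2063 and 1884 untreated, and 4027 and 1549 in GFP cells, against 1674 and 1477 untreated, over 8.50 to 9.85 kb, so that 1 GFP LPS library stood above the other 7. The block also called Jund (0.58 ± 0.17, adjusted p = 0.031) and Batf (0.45 ± 0.11, adjusted p = 0.016) higher in GFP cells and Fosb (0.62 ± 0.15, adjusted p = 0.0091) higher in Nur77 cells. With the block the counts were 5 higher and 0 lower in Nur77 cells, where 24.3% of all regions were higher and 23.6% lower, and 6 higher and 1 lower in GFP cells, where 18.3% were higher and 17.2% lower.

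None of the other 4 genes passed on summed tags without the block. Over Jund (chr8:70692027-70704739, shared with Gm39191 and Iqcn) Pol II had 2260.4 and 1888 normalized tags in Nur77 LPS libraries, against 1619 and 1889 untreated, and 3628 and 2682 in GFP LPS libraries, against 2204 and 1964 untreated. Over the end of Batf (chr12:85701864-85711723) it had 834 and 705 in Nur77 LPS libraries, against 721 and 559 untreated, and 1659 and 1283 in GFP LPS libraries, against 1235 and 921 untreated. Their GFP groups did not overlap, while their Nur77 groups overlapped. The GFP changes did not pass in limma (adjusted p = 0.09 for Jund and 0.2 for Batf). Their difference between the lines did not pass either (-0.34 ± 0.29 and -0.18 ± 0.31). With 2 libraries a group non-overlap alone says little, here and at the other genes. Its share over all regions was not counted. The mean called length over Jund was 9.58 to 11.7 kb in the 4 groups. Over Batf it was 5.19 kb in Nur77 LPS and 2.71 kb in untreated Nur77 libraries, and 8.11 kb in GFP LPS and 2.95 kb in untreated GFP libraries. Over the start of Fosb (chr7:19307254-19311267) the values were 324 and 190.5 after LPS in Nur77 cells, against 193 and 135 untreated, and 230.4 and 143 in GFP cells, against 189.7 and 115 untreated. Over Fosl2 (chr5:32131710-32149517) they were 1604 and 2256 after LPS in Nur77 cells, against 921 and 1389 untreated, and 2348 and 1646 in GFP cells, against 2294 and 1431 untreated. In both genes the GFP groups overlapped, as did the Nur77 groups of Fosb, while those of Fosl2 did not. The mean called length was 2.31 to 3.55 kb for Fosb and 8.46 to 15.3 kb for Fosl2. Fosl2 had a log2 change of 0.75 ± 0.32 in Nur77 cells (adjusted p = 0.11) and 0.12 ± 0.32 in GFP cells (adjusted p = 0.84).

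Set against called length, the order of the genes differed between conditions. In GFP LPS cells Junb was highest, at 527 ± 116 tags per kb (SD, n = 2), above both libraries of every other gene, followed by Jun (308 ± 172) and Jund (278 ± 57.2), which overlapped. Atf3 (191 ± 13.4), Batf (183 ± 10.9) and Fos (169 ± 52.7) overlapped as well, and Fosl1 (65.7 ± 7.23) was last, within the spread of Fosb. In untreated GFP cells Batf was highest (364 ± 45.6), Fos, Junb, Jund and Jun followed with overlapping values of 194 ± 93.9, 181 ± 7.62, 179 ± 23.1 and 178 ± 22, and Maff was last (33.8 ± 3.26). Untreated Nur77 cells also had Batf first (240 ± 23.5), and Maff and Fosb last with equal means (46). The Batf region covers the end of the gene and not its start. At the Batf start a short Pol II region (chr12:85686500-85687168) was called in the 2 untreated GFP libraries only, at 12.4 and 6.38 normalized tags. Of all Pol II regions of GFP cells 4.03% were called in both untreated and no LPS library, and 4.25% of those of untreated cells in both GFP and no Nur77 library. At the end of Fosl2 a second region (chr5:32153616-32159245) had 11.7 and 59.5 normalized tags in Nur77 LPS libraries, against no called peak in the untreated ones, and 99.5 and 14.0 in GFP LPS libraries, against 45.3 in untreated GFP replicate 1 only. Of the Pol II regions of Nur77 cells 4.95% were called in both LPS and no untreated library.

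H3K27ac showed gains and losses side by side, also within 1 gene. In Nur77 cells 10 of 19 tested regions were higher after LPS and 7 lower, where 28.5% of all 27094 tested regions were higher and 27.1% lower. In GFP cells 9 were higher and 5 lower, where 27.5% were higher and 25.5% lower. These splits depend on scaling: without it the members stood at 7 higher and 7 lower in Nur77 cells and 6 and 7 in GFP cells, and all regions at 4014 and 12616 and at 4053 and 12245, with a median log2 change of -0.33 and -0.32. Changes are given relative to that shift. Without scaling the calls of Fosl2 at its start and of Fos at 18477 bp were lost in both lines (0.07 in each for Fosl2, adjusted p = 0.40 and 0.44, and 0.32 and 0.31 for Fos, adjusted p = 0.058 and 0.069). So were that of Fosl1 in Nur77 cells (0.32, adjusted p = 0.081) and that of Atf3 at 9037 bp in GFP cells (0.16, adjusted p = 0.085). Unscaled values that moved by over 1.5 times and were still called were -0.94 and -0.71 over Jun in Nur77 and GFP cells, 0.26 and 0.60 over Junb and 0.37 and 0.62 over Batf. In Nur77 cells they were also -0.97 over Fos and 0.27 at 9037 bp from Atf3, and in GFP cells 0.46 at the lower-coordinate end of Fosl1. The Nur77 change over Jund was likewise over 1.5 times larger in the same direction.

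**Figure D3:**
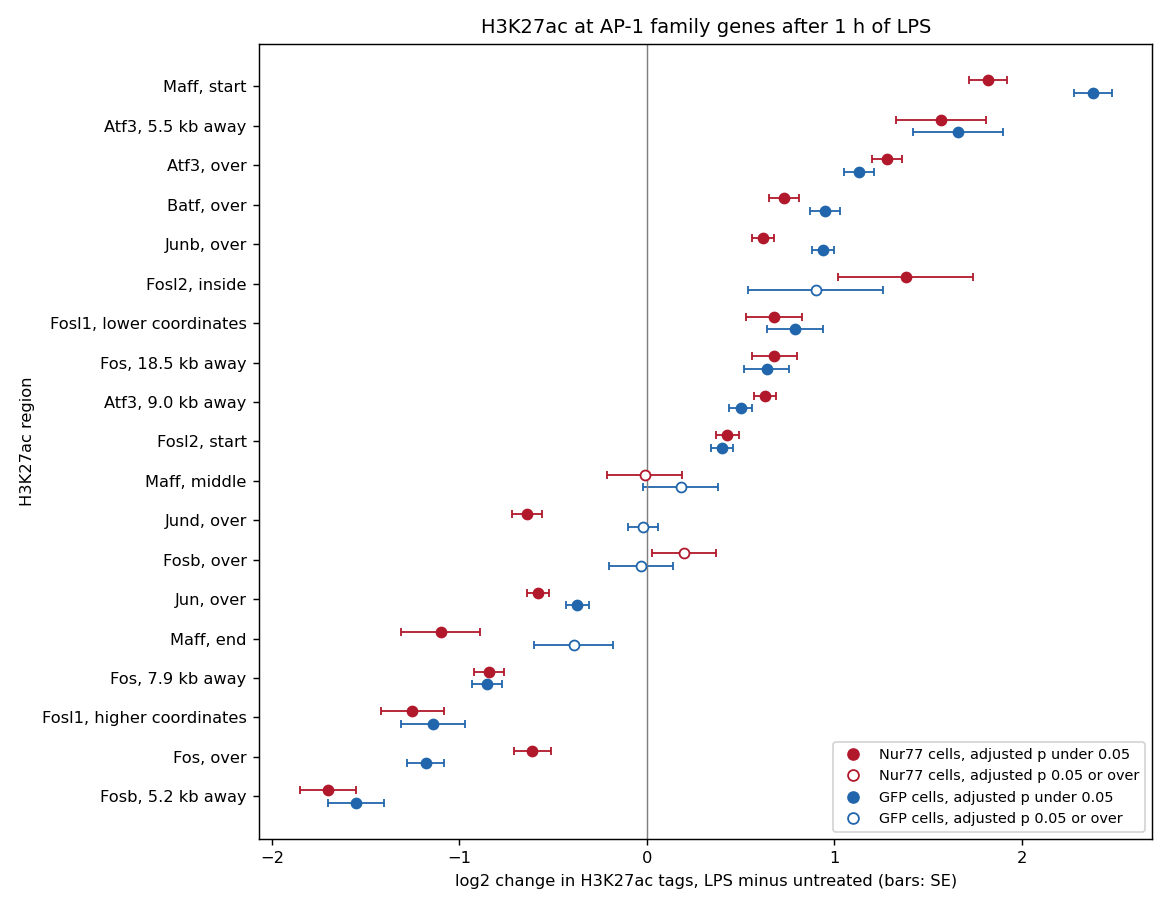
The log2 change in H3K27ac, LPS minus untreated, at the 19 tested member regions in Nur77 cells (upper point of each row) and GFP cells (lower point), with SE bars and filled points for an adjusted p under 0.05. The start of Maff has the largest gain (1.82 in Nur77 cells, 2.38 in GFP cells), and the site 5.2 kb from Fosb the largest loss (-1.70 and -1.55).

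The gains lay at Maff, Atf3, Junb, Batf, Fosl1 and Fosl2 and at 1 distal Fos site. At the start of Maff (chr15:79345716-79349947, the region that holds the promoter shown above) H3K27ac had 372 and 387 normalized tags in Nur77 LPS libraries, against 108 and 104 untreated, and 456 and 395 in GFP LPS libraries, against 87.8 and 74.6 untreated. The groups were far apart in each line, over 3.36 kb against 2.86 kb in Nur77 cells and 3.80 kb against 2.84 kb in GFP cells, with a log2 change of 1.82 ± 0.10 (adjusted p = 5.1e-08) in Nur77 cells and 2.38 ± 0.10 (adjusted p = 7.4e-09) in GFP cells. Within the same gene the middle region was not called in either line (-0.01 ± 0.20 and 0.18 ± 0.20), and the region at the end (chr15:79356259-79358544) had 38.5 and 49.1 after LPS in Nur77 cells, against 105 and 84.7 untreated, and 18.8 and 16.0 in GFP cells, against 23.2 and 22.6 untreated. Called length at that end was 1.63 kb against 2.11 kb in Nur77 cells and 0.926 kb against 1.10 kb in GFP cells. H3K27ac there fell in Nur77 cells (-1.10 ± 0.21, adjusted p = 7.3e-04), and in GFP cells the change was -0.39 ± 0.21 (adjusted p = 0.14). The difference between the lines in this change did not pass (-0.72 ± 0.29, adjusted p = 0.33).

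All 3 tested Atf3 regions rose in both lines. Over the gene (chr1:191172441-191187626) H3K27ac had 1364 and 1178 normalized tags in Nur77 LPS libraries, against 512 and 533 untreated, and 2095 and 1838 in GFP LPS libraries, against 916 and 877 untreated. This was over 11.2 kb against 9.02 kb and 13.7 kb against 13.1 kb, with log2 changes of 1.28 ± 0.08 (adjusted p = 1.4e-07) and 1.13 ± 0.08 (adjusted p = 3.7e-07). The upstream region 5497 bp away was weak, at 36.9 and 39.9 after LPS in Nur77 cells, against 16.2 and 9.24 untreated, and 117 and 98.8 in GFP cells, against 33.9 and 33.0 untreated (1.57 ± 0.24 and 1.66 ± 0.24), over 1.60 kb against 1.00 kb and 2.33 kb against 1.88 kb. The one 9037 bp away had 1641 and 1607 after LPS in Nur77 cells, against 1032 and 1062 untreated, and 1881 and 1699.8 in GFP cells, against 1251 and 1284 untreated (0.63 ± 0.06 and 0.50 ± 0.06), over 10.7 to 11.2 kb. The LPS libraries stood above the untreated ones at every Atf3 region. Counted per bp of called peak, the changes over the gene and at 5497 bp in Nur77 cells were 0.75 and 0.69, and that at 9037 bp in GFP cells 0.27, all still called.

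Junb, in a region of 13.0 to 13.6 kb shared with Hook2 and Prdx2 (chr8:84973745-84987841), had 2953 and 2982 normalized tags in Nur77 LPS libraries, against 1898 and 1959 untreated, and 3649.6 and 3378 in GFP LPS libraries, against 1920.2 and 1753 untreated. Its log2 change was 0.62 ± 0.06 (adjusted p = 6.5e-06) and 0.94 ± 0.06 (adjusted p = 2.5e-07).

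Near the end of Batf (chr12:85703714-85706746), around the HA site inside the gene, H3K27ac had 358 and 341 normalized tags in Nur77 LPS libraries, against 219.7 and 201 untreated, and 703 and 669.9 in GFP LPS libraries, against 375 and 335 untreated. Called length was 2.59 kb against 2.12 kb and 2.96 kb against 2.54 kb. H3K27ac there rose in Nur77 cells (0.73 ± 0.08, adjusted p = 9.2e-06) and in GFP cells (0.95 ± 0.08, adjusted p = 1.1e-06). Per bp of called peak the Nur77 call was lost (0.23, adjusted p = 0.060) and the GFP change was 0.53, still called. At the lower-coordinate end of Fosl1 (chr19:5447138-5452646) H3K27ac was 345 and 405 after LPS in Nur77 cells, against 220.0 and 247 untreated, and 160.2 and 205 in GFP cells, against 122 and 89.0 untreated (0.68 ± 0.15 and 0.79 ± 0.15), over 5.24 kb against 5.29 kb and 3.65 kb against 4.15 kb. At the higher-coordinate end (chr19:5455386-5458837) it was 53.8 and 75.2 in Nur77 cells, against 152 and 154, and 55.5 and 76.1 in GFP cells, against 150.3 and 139, a loss in both lines (-1.25 ± 0.17 and -1.14 ± 0.17) over 2.26 kb against 2.99 kb and 2.18 kb against 2.53 kb. Both regions are shared with Ccdc85b, and most of the higher-coordinate one lies beyond the Fosl1 span, which ends at 5455938. A gain and a loss thus lay a few kb apart, and neither can be assigned to Fosl1 alone. At the start of Fosl2 (chr5:32132702-32143401), with 1419.9 and 1401 after LPS in Nur77 cells, against 1029.9 and 1061 untreated, and 1526 and 1414 in GFP cells, against 1160.1 and 1065 untreated, the change was small, 0.43 ± 0.06 and 0.40 ± 0.06, on called lengths of 10.4 kb against 8.91 kb and 9.91 kb against 8.29 kb. Per bp of called peak it was 0.00 (adjusted p = 1) in Nur77 cells and -0.05 (adjusted p = 0.69) in GFP cells. A weak region inside Fosl2, with 49.2 and 34.2 after LPS in Nur77 cells against 23.6 and 9.60 untreated, passed there (1.38 ± 0.36, adjusted p = 0.0063), and in GFP cells it had 31.8 and 28.4 against 13.8 and 17.7 (0.90 ± 0.36, adjusted p = 0.053), and the difference between the lines was 0.48 ± 0.51 (adjusted p = 0.75). That call was lost per bp of called peak (0.17, adjusted p = 0.25), without Nur77 LPS replicate 1 (1.11, adjusted p = 0.060) and without untreated Nur77 replicate 2 (0.77, adjusted p = 0.074).

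Apart from the regions at the end of Batf and 8108 bp upstream of Fosb, the untested H3K27ac regions were weak, at most 17.1 normalized tags in any library. They include all nearby regions of Fosl2 and the 1 nearby region of Maff, 3099 bp away.

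Losses lay at Fos, Fosb, Jun and Jund, beside those at the ends of Maff and Fosl1. Over Fos (chr12:85467431-85477425) H3K27ac had 318 and 275 normalized tags in Nur77 LPS libraries, against 493 and 417 untreated, and 413 and 366 in GFP LPS libraries, against 874 and 897 untreated. Called length was 5.09 kb against 6.18 kb in Nur77 cells and 5.51 kb against 9.20 kb in GFP cells. The LPS libraries were below the untreated ones in each line, with log2 changes of -0.61 ± 0.10 (adjusted p = 1.9e-04) and -1.18 ± 0.10 (adjusted p = 1.0e-06, and -0.64 per bp of called peak). The site 7914 bp downstream (chr12:85485188-85492570) fell in both lines, at 339 and 298 after LPS in Nur77 cells, against 595 and 544 untreated, and 709 and 618 in GFP cells, against 1220.5 and 1169 untreated (-0.84 ± 0.08 and -0.85 ± 0.08), over 6.21 kb against 7.04 kb and 7.02 kb against 7.26 kb. The site 18477 bp downstream rose (0.68 ± 0.12 and 0.64 ± 0.12), at 119.7 and 121 in Nur77 LPS libraries, against 82.3 and 68.2 untreated, and 233 and 206 in GFP LPS libraries, against 129.7 and 152 untreated, over 2.22 kb against 2.01 kb and 2.86 kb against 2.28 kb. Per bp of called peak that GFP call was lost (0.12, adjusted p = 0.49) and the Nur77 change was 0.33 (adjusted p = 0.050), still called. So the 2 distal Fos sites moved in opposite directions on scaled summed tags. Without scaling the rise at 18477 bp was not called in either line.

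Fosb had its loss away from the gene. The site 5205 bp from it (chr7:19315323-19317712, where HA-Nur77 was also called) had 32.6 and 41.5 normalized tags in Nur77 LPS libraries, against 119 and 125 untreated, and 30.9 and 30.8 in GFP LPS libraries, against 96.7 and 87.6 untreated. Called length was 1.32 kb against 2.31 kb and 1.13 kb against 1.96 kb. The log2 change was -1.70 ± 0.15 (adjusted p = 2.4e-06) and -1.55 ± 0.15 (adjusted p = 5.7e-06), and per bp of called peak -1.10 and -0.96. A further site 8108 bp from Fosb had 7.43 in Nur77 LPS replicate 2 only, against 41.2 and 40.5 untreated, and 6.96 and 7.35 in GFP LPS libraries, against 42.8 and 35.5 untreated, and was not tested. Over Fosb itself neither line passed (0.20 ± 0.17 and -0.03 ± 0.17). Over Jun (chr4:95048543-95055912, shared with Junos) H3K27ac had 552 and 542 after LPS in Nur77 cells, against 796 and 842 untreated, and 575 and 557 in GFP cells, against 744 and 719 untreated, over 6.34 to 6.85 kb, a log2 change of -0.58 ± 0.06 (adjusted p = 6.8e-06) and -0.37 ± 0.06 (adjusted p = 2.7e-04). All LPS libraries were below all untreated ones over Jun in H3K27ac, whereas in Pol II they overlapped.

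Jund, a Jun gene that is expressed more steadily than Jun and Junb in many cells, was the 1 of 19 member regions whose H3K27ac change with LPS differed between the lines. Its region (chr8:70693067-70701495, shared with Gm39191 and Iqcn) had 470.0 and 542 normalized tags in Nur77 LPS libraries, against 767 and 811 untreated, and 827 and 856 in GFP LPS libraries, against 899 and 807 untreated, over 7.51 to 8.11 kb. H3K27ac fell in Nur77 cells (-0.64 ± 0.08, adjusted p = 2.8e-05), and in GFP cells the groups overlapped (-0.02 ± 0.08, adjusted p = 0.86). The difference in response was -0.63 ± 0.11 (adjusted p = 0.038), where 0.118% of all regions were higher and 0.476% lower in that test. The call was lost without scaling factors (-0.65, adjusted p = 0.071), per bp of called peak (-0.61, adjusted p = 0.24) and without any of 7 single libraries (-0.52 to -0.70, adjusted p = 0.063 to 0.23), all but Nur77 LPS replicate 2. For Pol II 0 of the 10 genes and 0 of all 17081 regions passed this test in limma. At an unadjusted p under 0.05 they were 1 of 10 (Maff, -1.13 ± 0.32) and 464 (2.72%) of all, and with the replicate block 0 of all passed and 1391 had such a p.

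The last comparison set Nur77 cells against GFP cells. In H3K27ac 4 of 19 member regions were higher in Nur77 cells and 7 lower before LPS, where 15.4% of all regions were higher and 15.3% lower, and after LPS 3 were higher and 8 lower, where 16.5% were higher and 19.5% lower. The higher ones were at Maff, Fosl1 and Fosb, and the lower ones at Fos, Atf3 and Batf and, after LPS, also at Jund and Junb. At the end of Maff the values above give a log2 difference of 1.28 ± 0.21 after LPS (adjusted p = 5.4e-04) and 2.00 ± 0.21 untreated (adjusted p = 2.5e-05), or 0.53 and 1.11 per bp of called peak. At the lower-coordinate end of Fosl1, in the region shared with Ccdc85b, it was 1.04 ± 0.15 and 1.15 ± 0.15 (adjusted p = 2.7e-04 and 1.4e-04), or 0.54 after LPS per bp of called peak. Over Fosb (chr7:19307473-19310746), with 141 and 99.5 in Nur77 LPS libraries against 77.9 and 64.4 in GFP LPS libraries, and 103 and 102 untreated against 78.0 and 67.3, it was 0.73 ± 0.17 and 0.50 ± 0.17 (adjusted p = 0.0047 and 0.039), over 2.76 kb against 1.93 kb and 3.20 kb against 2.90 kb. The start of Maff was higher before LPS (0.39 ± 0.10, adjusted p = 0.012) and had -0.16 ± 0.10 after it (adjusted p = 0.24), and these differed by -0.55 ± 0.14 (adjusted p = 0.12). Some of these calls were lost when 1 library was left out: that over Fosb untreated without any of the 4 untreated libraries (0.39 to 0.60, adjusted p = 0.064 to 0.21), and that at the start of Maff without untreated Nur77 replicate 1 (adjusted p = 0.076) or untreated GFP replicate 2 (0.27, adjusted p = 0.11). Counted per bp of called peak Fosb was lost at both times (0.24 and 0.38, adjusted p = 0.29 and 0.11).

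**Figure D4:**
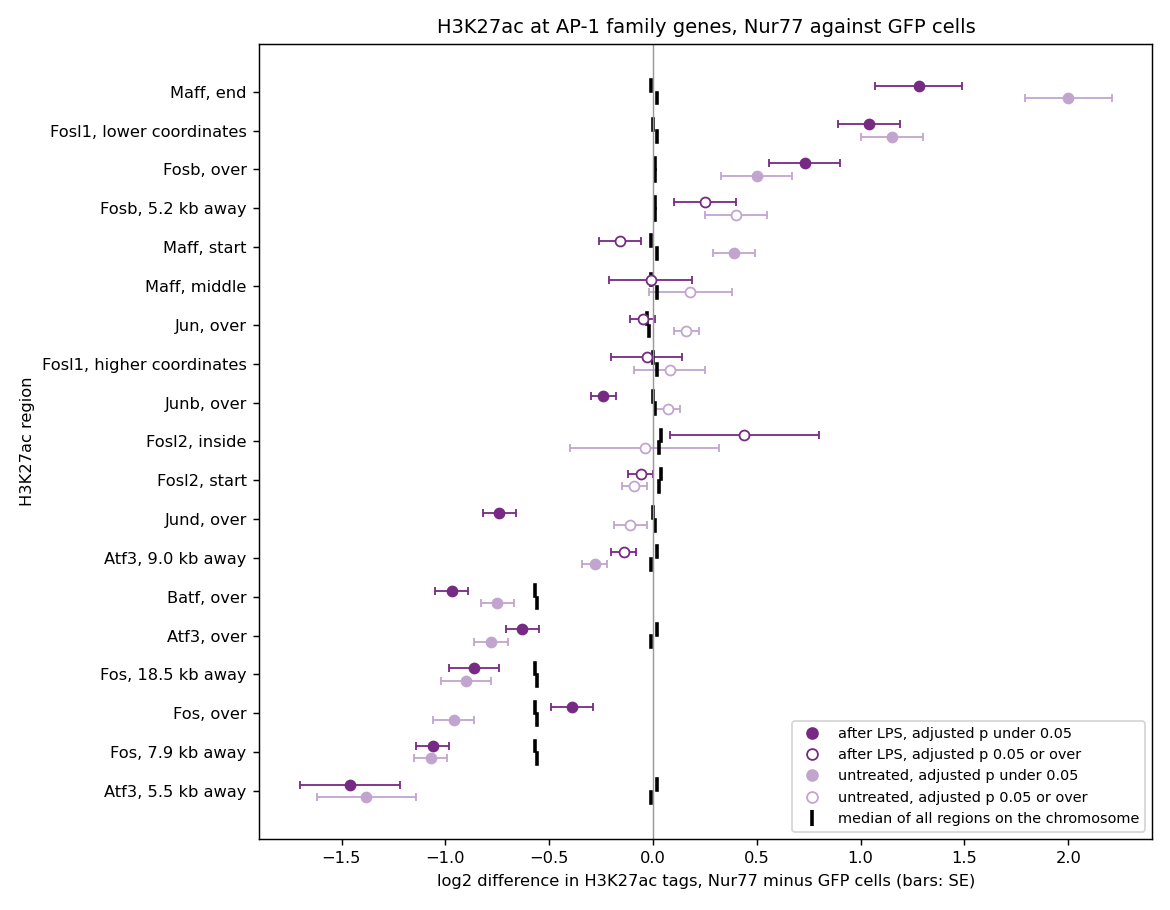
The log2 difference in H3K27ac, Nur77 minus GFP cells, at the 19 tested member regions after LPS (upper point of each row) and untreated (lower point), with SE bars, filled points for an adjusted p under 0.05 and a black tick at the median of all tested regions on the same chromosome. The ticks lie near 0 except for Fos and Batf on chromosome 12, where they lie at -0.57 and -0.56.

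Of the lower regions, those of Atf3 lay on chromosome 1, whose median difference was 0.02 after LPS and -0.01 untreated. Atf3 was lower in Nur77 cells over the gene (-0.63 ± 0.08 after LPS and -0.78 ± 0.08 untreated) and at 5497 bp (-1.46 ± 0.24 and -1.38 ± 0.24), and at 9037 bp before LPS (-0.28 ± 0.06, adjusted p = 0.0052). Per bp of called peak the difference over the gene was -0.32 and -0.21 and no longer passed (adjusted p = 0.11 and 0.31), and that at 5497 bp was -0.89 and -0.45 and did. At 9037 bp the call was lost per bp of called peak (-0.20, adjusted p = 0.18) and without untreated Nur77 replicate 1 (-0.25, adjusted p = 0.057). Jund was lower after LPS (-0.74 ± 0.08, adjusted p = 2.9e-05). Junb was lower after LPS by a small amount (-0.24 ± 0.06, adjusted p = 0.011), a call lost without Nur77 LPS replicate 1 (adjusted p = 0.061), without GFP LPS replicate 1 (-0.18, adjusted p = 0.060) and per bp of called peak (-0.19, adjusted p = 0.20).

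Fos and Batf are both on chromosome 12, and the whole chromosome differed between the lines. The median Nur77 minus GFP difference over its tested regions was -0.55 after LPS and -0.51 untreated for Pol II (667 regions) and -0.57 and -0.56 for H3K27ac (1164 regions), while no other chromosome had a median outside -0.08 to 0.08. Of all called input regions, 4.20% in Nur77 LPS and 4.24% in Nur77 untreated cells lay on chromosome 12, against 34.4% in GFP LPS and 28.3% in GFP untreated cells (1 input library each). Within 50 kb of Fos the input lists held 2 and 0 regions in Nur77 LPS and untreated cells, against 13 and 10 in GFP LPS and untreated cells. For Batf they held 1 and 1, against 6 and 7. Near Atf3 on chromosome 1 they held 3 and 0 regions in Nur77 LPS and untreated cells, against 6 and 7 in GFP LPS and untreated cells. The 3 tested Atf3 H3K27ac regions all overlapped a region called in input, as did all tested H3K27ac regions of Fos and Batf. No tested H3K27ac region of the other members did. The part of input in the differences between lines was not tested.

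**Figure D5:**
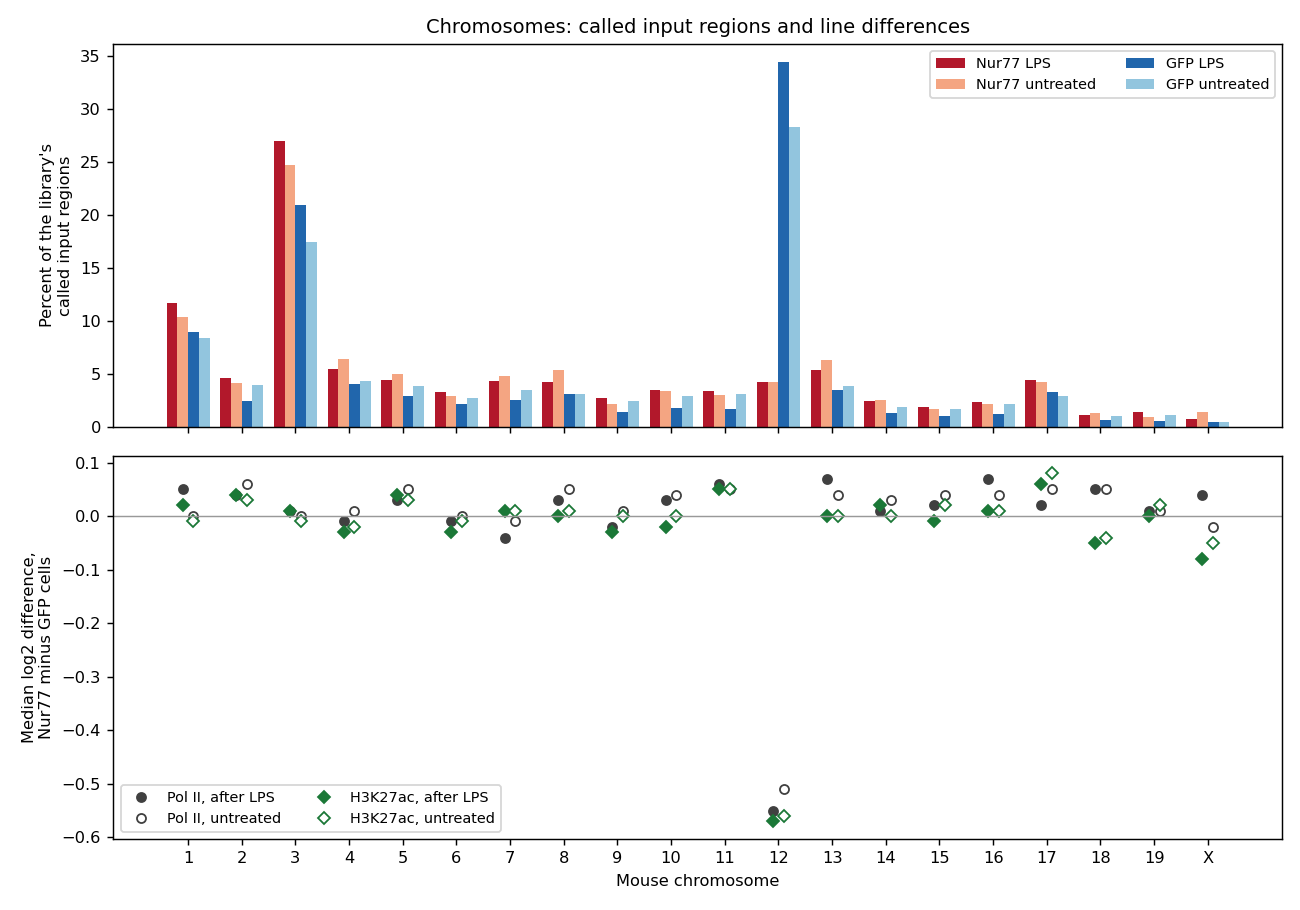
Upper panel, the percent of each input library's called regions on each mouse chromosome, as bars in the order Nur77 LPS, Nur77 untreated, GFP LPS and GFP untreated. Lower panel, the median log2 difference, Nur77 minus GFP cells, over all tested Pol II and H3K27ac regions of each chromosome. Chromosome 12 holds 34.4% and 28.3% of the GFP input regions and is the only one with medians near -0.5.

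As measured, H3K27ac at Fos and Batf was lower in Nur77 cells. The difference over Fos was -0.39 ± 0.10 after LPS (adjusted p = 0.0074) and -0.96 ± 0.10 untreated (adjusted p = 1.9e-05), at 7914 bp -1.06 ± 0.08 and -1.07 ± 0.08, at 18477 bp -0.86 ± 0.12 and -0.90 ± 0.12, and at Batf -0.97 ± 0.08 and -0.75 ± 0.08. With each library centred on its chromosome medians, an alternative chosen after the values were seen, the difference over Fos was 0.19 (adjusted p = 0.16) after LPS and -0.42 (adjusted p = 0.0074) untreated, and at 7914 bp -0.48 (adjusted p = 0.0017) and -0.52 (adjusted p = 0.0010). At 18477 bp it was then -0.28 (adjusted p = 0.099) and -0.35 (adjusted p = 0.049), and at Batf -0.39 (adjusted p = 0.0030) and -0.20 (adjusted p = 0.077). The site 7914 bp from Fos was therefore lower at both times with and without the centring, and the other Fos and Batf regions at 1 time. Over Fos the call after LPS was also lost without Nur77 LPS replicate 2 (-0.30, adjusted p = 0.067), without GFP LPS replicate 1 (-0.30, adjusted p = 0.076) and per bp of called peak (-0.25, adjusted p = 0.13). Counted per bp of called peak, the difference over Fos untreated was -0.36, at 18477 bp after LPS -0.46 and at Batf untreated -0.45, all still called.

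In Pol II 0 of 10 members passed between the lines at either time, where 0.872% of all regions were higher and 0.650% lower after LPS, and 0.111% and 0.0585% untreated. At an unadjusted p under 0.05 the counts were 3 after LPS and 4 untreated, where 17.7% and 12.0% of all regions had such a p. With the replicate block Fosl1 was higher (0.55 ± 0.12, adjusted p = 0.026) and Batf lower (-0.93 ± 0.11, adjusted p = 0.0040) after LPS, where the block called 6.48% higher and 6.30% lower. Untreated, the block called Maff higher (1.08 ± 0.19, adjusted p = 0.022) and Fos (-1.61 ± 0.22, adjusted p = 0.0085) and Batf (-0.75 ± 0.11, adjusted p = 0.014) lower, where it called 2.71% and 3.27%. Centred on the chromosome medians, without the block, the Pol II difference after LPS and untreated was 0.11 and -1.10 for Fos and -0.37 and -0.24 for Batf, and none of the 4 passed.

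Related genes, on lists chosen with results of these data known, were counted by 1 region each, which can be shared with neighbours. Of 12 other zipper genes 10 had a tested Pol II region, of which 3 rose in Nur77 cells, over Jdp2 (1.29 ± 0.22), which lies between Fos and Batf and whose protein pairs with Jun proteins, over Cebpb (1.08 ± 0.23) and over Atf4 (0.74 ± 0.21), while in GFP cells 1 rose, over Jdp2 (0.84 ± 0.22). With the replicate block 4 were higher and 0 lower in Nur77 cells, and 3 higher and 1 lower in GFP cells. Over all tested Pol II regions 15.2% were higher and 15.0% lower in Nur77 cells, and 10.0% and 8.55% in GFP cells. With the block these shares were 24.3% and 23.6%, and 18.3% and 17.2%. In H3K27ac 4 rose and 4 fell of 11 in Nur77 cells, where 28.5% of all regions rose and 27.1% fell. In GFP cells 4 rose and 6 fell, where 27.5% and 25.5% did. No test compared the lists with these shares. Of 14 genes that act on AP-1 genes 1 rose and 5 fell in Pol II in Nur77 cells, and 1 and 3 in GFP cells, or 2 and 6 and 1 and 4 with the block. Dusp1, a phosphatase of MAP kinases, rose (1.24 ± 0.36 and 1.66 ± 0.36), and Elk1, a partner of serum response factor whose region is shared with Cfp, fell (-1.90 ± 0.27 and -2.50 ± 0.27), as did Mef2d (-0.98 ± 0.19 and -1.53 ± 0.19). Mapk14, the p38 kinase gene, fell in Nur77 cells (-0.84 ± 0.19), and in GFP cells it had -0.37 ± 0.19 (adjusted p = 0.23). Of 16 genes described in textbooks as AP-1 targets 11 had a tested Pol II region, of which 6 rose and 1 fell in Nur77 cells and 6 rose and 0 fell in GFP cells, or 7 and 1 and 6 and 1 with the block. Among the 4 with the smallest p in Nur77 cells were Cd44, the hyaluronan receptor (3.92 ± 0.42 and 3.63 ± 0.42), the chemokine gene Ccl2 (3.41 ± 0.67 and 3.44 ± 0.67) and the urokinase receptor gene Plaur, shared with Cadm4 (2.83 ± 0.20 and 3.37 ± 0.20). The gene that fell in Nur77 cells, named after its value was seen, was the cyclin gene Ccnd1 (-1.79 ± 0.44), which had -1.48 ± 0.44 in GFP cells (adjusted p = 0.054). The median log2 change of these lists was 0.24, -0.33 and 1.53 in Nur77 cells and 0.07, -0.09 and 1.84 in GFP cells, where that of all regions was 0.01.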

How the data were processed

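ChIP-seq of HA, Pol II and H3K27ac and 1 input library per group were read from 26 libraries. HISAT2 2.1.0 and HOMER are the tools and mm10 the build that the submitters' processing notes name. Per the file headers, each deposited peak signal is a normalized tag count, per 10 M mapped tags, called per library without input, in factor style for HA and histone style for Pol II and H3K27ac. Per the file headers, 3 H3K27ac libraries (untreated GFP, GFP LPS and untreated Nur77 replicate 1) kept a local filter that the others had turned off. Deposited values are multiples of 0.5 tag, so no count test was used.

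Peaks of a target sharing at least 1 bp were merged and their tags summed. Regions with a peak in every library of the target were scaled by trimmed mean of M-values factors (30% of M and 5% of A values trimmed) and tested in limma 3.58.1 (R 4.3.3) on log2(scaled tags + 1), so changes of weak regions are understated. Each target was fitted over all its groups, with Benjamini-Hochberg adjustment over all regions and a threshold of 0.05. The limma fit alone was run on simulated log2 values with known changes and noise drawn independently for each library. The merging of peaks and the scaling were not simulated. Python 3.11.15 with pandas 2.3.3 and numpy 2.4.6 made the regions.

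Same-numbered HA replicates deviated together (correlations 0.481, 0.834 and 0.695), as did Pol II ones (0.347 to 0.631), so values with replicate number as a block are given for these targets where they change a call. The alternatives were no scaling, another pseudocount, tags per bp of called peak, a stricter peak threshold, a 100 bp overlap, regions with peaks in all libraries of 1 group, genes without the flank and leaving out each library. The members, gene lists and tests were chosen with earlier results of these data known. All member regions called in a comparison, the strongest region over each gene and the strongest nearby one are named, and at most 4 genes of each other list, by smallest p; some of these are not reported here.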

Additional observations from a re-analysis of the deposited data

Results flagged for a closer look

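The H3K27ac change with LPS over Jund differed between the lines by -0.63 ± 0.11 (limma interaction term, adjusted p = 0.038), being -0.64 ± 0.08 in Nur77 cells and -0.02 ± 0.08 in GFP cells. This call was lost without scaling factors (adjusted p = 0.071), per bp of called peak (adjusted p = 0.24) and in most refits without 1 library. The inputs of Nur77 LPS and untreated Nur77 cells, which no comparison used, had 381 of 9082 and 220 of 5183 called regions on chromosome 12, the chromosome of Fos and Batf, against 3250 of 9440 in GFP LPS cells and 3882 of 13698 in untreated GFP cells.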

How the results depend on the processing

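Of single member regions called, 62 of 62 kept direction and call with a pseudocount of 10, a stricter peak threshold, a 100 bp overlap and the replicate block. Without scaling 53 of 62 did, per bp of called peak 48, with peaks in all libraries of 1 group 58, with chromosome centring 58 of 61, and in 494 refits without 1 library 465. The 4 lost with peaks in all libraries of 1 group were the H3K27ac differences between lines after LPS over Fos (-0.39, adjusted p = 0.053) and Junb (-0.24, adjusted p = 0.057) and untreated over Fosb (0.50, adjusted p = 0.12), and the Nur77 change with LPS in the weak Fosl2 region (1.38, adjusted p = 0.055). The cause of the changes was not tested. Reversed were Fosl2 at its start in GFP cells per bp (-0.05) and Fos between lines after LPS with chromosome centring (0.19), an alternative chosen after seeing the data. With 2 or 3 libraries a group, few libraries limit all of these calls.

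Counts of called regions (and of members) that moved by over 1.5 times were as follows. Without scaling, HA had 6 (0) in place of 521 (1), Pol II between untreated lines 50 in place of 29, and the H3K27ac difference in response 68 (0) in place of 161 (1). With the replicate block, HA had 4536 (2), Pol II after LPS 8183 in Nur77 cells in place of 5166 and 6063 (7) in GFP cells in place of 3176 (3), Pol II between lines 2183 (2) after LPS in place of 260 (0) and 1022 (3) untreated in place of 29 (0), and the H3K27ac difference in response 2 members, with Fos (0.57, adjusted p = 0.041, against 0.098 without the block) beside Jund. Same-numbered H3K27ac libraries did not deviate together (correlations -0.102 to 0.089). Per bp of called peak, Pol II had 2084 in Nur77 and 1224 in GFP cells after LPS and 30 between lines after LPS, and H3K27ac 4561 (7) between lines after LPS in place of 9757 (11), 3836 untreated in place of 8333, and 0 (0) in the response. With peaks in all libraries of 1 group, HA had 2959, Pol II 5563 (5) after LPS in GFP cells, 2018 between lines after LPS, 1318 (1) untreated and 1245 (1) in the response, and H3K27ac 4483 (2) in the response. The stricter threshold gave 7 and centring 2 for Pol II between untreated lines, and centring 131 after LPS.

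Leaving out 1 library gave 0 to 596 (0 members) for HA, 2270 to 5015 (3 to 4) and 1419 to 3117 (3 to 4) for Pol II after LPS in Nur77 and GFP cells, and 0 to 158 (0) and 0 to 26 (0) between lines after LPS and untreated. For H3K27ac it gave 11787 to 15266 (16 to 18) and 11262 to 14985 (14 to 15) after LPS, 7512 to 9365 (9 to 12) and 5237 to 8931 (8 to 12) between lines, and 1 to 182 (0 to 1) in the response. For Pol II in the response it was 0 (0).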
